A study of Mus musculus with 24 samples.

Results

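The abundant nuclear long noncoding RNAs (lncRNAs) of mouse hippocampus described here are the 8 genes Malat1, Neat1, Meg3, Miat, Rian, Mirg, Lncpint and Snhg11, chosen by symbol. They are 8 of the 36605 genes counted, each was matched to 1 Ensembl identifier, and all 8 passed the filter on low counts over the whole series. Hippocampal polyA RNA of 24 adult mice, whose age in weeks is not given in the sources used here, was sequenced without strand information. The mice were of 4 genotypes and both sexes. Egr1wtNesCre- mice were the wild type, and Egr1fNesCre- mice carried the Egr1_tm1a_A04 allele, in which loxP sites (floxP) flank part of Egr1, a C57BL/6N allele. Egr1wtNesCre+ mice carried the B6.Cg-Tg(Nes-cre)1Kln/J transgene, which expresses Cre recombinase from the Nestin promoter, active in precursors of neurons and glia. Egr1fNesCre+ mice carried both and are called Egr1cKO. Sex was the second factor, so that there were 8 groups of 3 mice. The labels number the mice with and without the floxP allele in 2 separate ranges, so a floxP difference and a difference between these series of mice cannot be told apart.

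These RNAs work, or are held, in the nucleus rather than being translated. Malat1 accumulates in nuclear speckles, where splicing factors are stored, and Neat1 is the scaffold of paraspeckles, nuclear bodies that assemble on its long isoform and grow under stress. Meg3, Rian and Mirg are transcribed one after another from the maternal allele of the imprinted Dlk1-Dio3 region and host many small RNAs. Miat forms nuclear domains in neurons, Lncpint is a p53-induced RNA that interacts with the Polycomb machinery, and Snhg11 hosts small nucleolar RNAs and is strongly transcribed in neurons.

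The 3′ ends of Malat1 and Neat1 bear on how a polyA library catches them, and are therefore shown first. The mature 3′ ends of Malat1 and of the long Neat1 isoform are made by RNase P, are not polyadenylated, and are protected by a triple helix of U-rich motifs and an encoded A-rich tract, whereas the short Neat1 isoform carries an ordinary polyA tail. In GENCODE M21 on GRCm38, Malat1-201 is 1 exon of 6983 bases on chromosome 19, minus strand, from 5795690 to 5802672, Neat1-201 is 1 exon of 20771 bases from 5824708 to 5845478, and Neat1-202 has 2 exons and 3004 bases. The next lines give 120 bases up to the end of the A-rich tract, for Malat1-201 at chr19:5795982-5796101 and for Neat1-201 at chr19:5824708-5824827, 5′ to 3′ with T for U, and capitals mark the runs of at least 9 bases that both hold in the same order.
Malat1-201: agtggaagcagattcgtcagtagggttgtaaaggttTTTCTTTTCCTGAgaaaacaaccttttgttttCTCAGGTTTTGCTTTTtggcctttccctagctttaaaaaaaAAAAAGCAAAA
Neat1-201: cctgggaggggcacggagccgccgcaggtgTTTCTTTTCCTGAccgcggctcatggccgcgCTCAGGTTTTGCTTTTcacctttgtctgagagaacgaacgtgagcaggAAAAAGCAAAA
The 3 shared runs were 13, 16 and 11 bases long, 2 of them rich in T and the last 1 the A-rich tract. In Neat1-201 the tract is the annotated end, and no AATAAA polyadenylation signal lies in its last 60 bases. In Malat1-201 the annotation runs on for 292 bases past the tract. The last 60 bases of Neat1-202, at chr19:5842307-5842366, and of Malat1-201, at chr19:5795690-5795749, each hold 1 AATAAA, which is shown in capitals.
Neat1-202: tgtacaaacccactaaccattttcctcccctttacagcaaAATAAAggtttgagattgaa
Malat1-201: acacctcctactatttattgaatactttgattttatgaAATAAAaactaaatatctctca
Counts per gene sum these isoforms, so the short and the long Neat1 were not told apart, and how oligo-dT selection weighted the 2 kinds of end was not tested.

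The other members lie on 4 chromosomes, with GRCm38 positions from GENCODE M21. Meg3 spans 109541001 to 109571726, Rian 109603940 to 109661716 and Mirg 109729764 to 109749460 on the plus strand of chromosome 12. Miat spans 112213228 to 112229395 on the minus strand of chromosome 5, Lncpint 31082565 to 31220488 on the minus strand of chromosome 6, and Snhg11 158375638 to 158386145 on the plus strand of chromosome 2. The annotation calls Snhg11 protein_coding, Rian processed_transcript and the others lincRNA. Small RNA genes lie inside 7 of the 8, among them 13 snoRNA genes in Rian and 15 miRNA genes in Mirg. Lncpint has no small RNA inside but overlaps 5 longer genes, 2 of them antisense. The highest count of each of these 5 in any mouse, added up, came to 330.

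Per mouse, the deposited table held 18025168 to 34955004 counts, with a median of 22743950. No mouse had a count of 0 for any member. Levels are given as CPM, each count as a rate in its library after scaling by edgeR's TMM factors, which correct for differences in RNA composition. Per kilobase of exon, the median over the 24 mice was 250 CPM for Malat1, 205 for Snhg11, 181 for Meg3, 42.1 for Miat, 35.2 for Rian, 2.90 for Neat1, 2.67 for Mirg and 0.387 for Lncpint. Malat1, Snhg11 and Meg3 were thus the most abundant per length, and Neat1, Mirg and Lncpint the least. Lncpint had 31 to 168 counts in a mouse, against 284 to 743 for Mirg and 664 to 1936 for Neat1, so it was the least precisely counted of the 8.

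Egr1, the targeted gene, matched the labels, at 4.85 to 10.2 CPM in the 6 Egr1cKO mice and at 47.6 to 149 CPM in the 18 others. The cell type label reads endocrine, while the 6 markers of hippocampal neurons (Prox1, Wfs1, Neurod6, Spink8, Fibcd1 and Dsp) summed to 475 to 868 CPM and the 6 neuron markers to 4829.9 to 5629.6 CPM, none of them at 0 in any mouse. A pair of libraries stood apart in the hippocampal list. The female Egr1wtNesCre+ replicate 1 had its lowest sum, 475 CPM, and the highest sum of the 6 choroid plexus markers, 2028 CPM against a median of 51.6, and the male Egr1cKO replicate 3 had the next lowest hippocampal sum, 512 CPM.

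**Figure D1:**
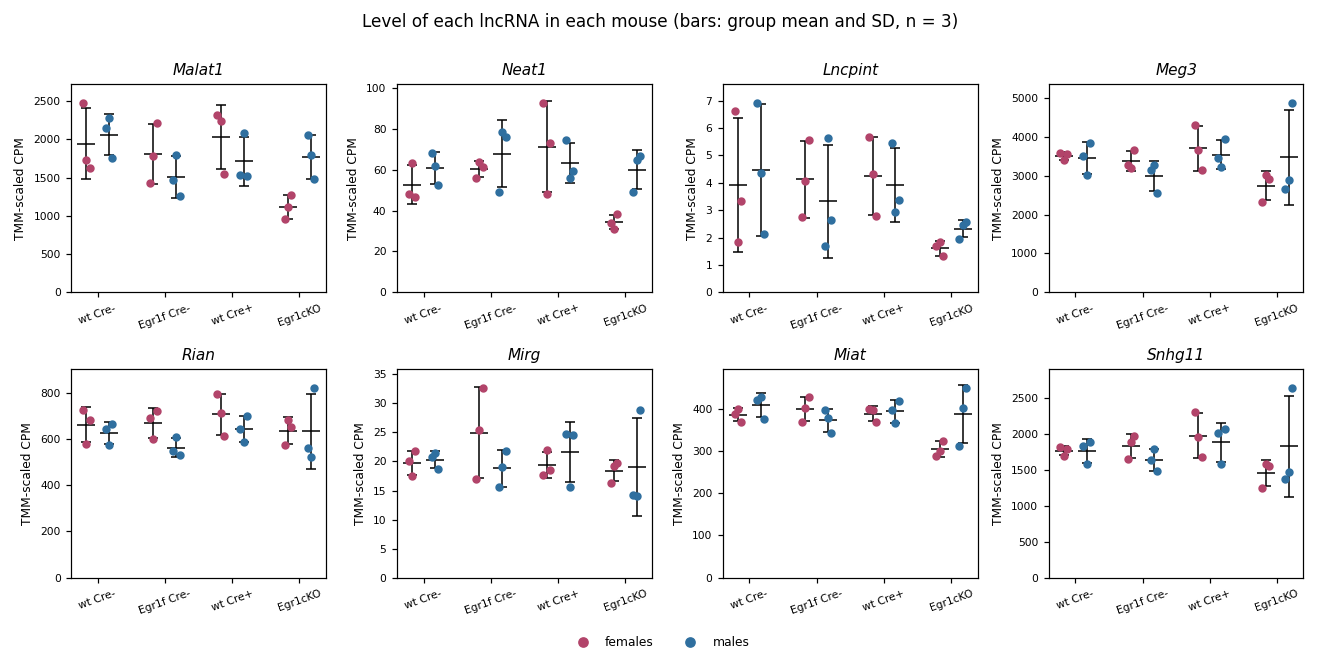
TMM-scaled CPM of each lncRNA (vertical axes, from 0) in each of the 24 mice, by genotype (wt Cre-, Egr1wtNesCre-; Egr1f Cre-, Egr1fNesCre-; wt Cre+, Egr1wtNesCre+; Egr1cKO) and sex, with group means and SDs of 3 mice as bars. The 3 female Egr1cKO mice are lowest for Neat1, at 31.0 to 38.2 CPM, and the male Egr1cKO replicate 3 is highest of all mice for Meg3, at 4873 CPM.

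Malat1 and Neat1, 2 of the 8 members, fell in female Egr1cKO mice against the females of both parental genotypes, and the other 6 did not pass the test in either comparison. A gene passed, or was called, in edgeR's quasi-likelihood test at an adjusted p no higher than 0.05 together with a difference of 1.2-fold or more (FC, fold change, given as log2FC), which 0.288% of 17359 genes did against Egr1fNesCre- females and 1.81% of 17141 against Egr1wtNesCre+ females. Against Egr1fNesCre- females Malat1 fell by 38.5% and Neat1 fell by 43.1%, and against Egr1wtNesCre+ females they fell by 45.2% and fell by 51.9%. Lncpint had the largest fold, 2.56 and 2.66, also towards lower levels, with more spread, and did not pass. In males none of the 8 passed either comparison, in which 0.00569% and 0.00575% of all genes were called. Both comparisons use the same 3 Egr1cKO females, so they are not independent of each other. Egr1cKO and Egr1wtNesCre+ mice also carry numbers from different label ranges. In that comparison, in either sex, the floxP allele, loss of Egr1 and the series of mice all change at once. Only the comparison with Egr1fNesCre- mice stays within the same series, and there Malat1 passed narrowly in females. In whole tissue, fewer cells of a type and less RNA per cell cannot be told apart.

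Malat1, the speckle lncRNA, was at 2478, 1734 and 1625 CPM in Egr1wtNesCre- females and at 2149, 2275 and 1759 CPM in the males of that genotype. In Egr1fNesCre- mice it was at 1432, 1787 and 2221 CPM in females and 1464, 1798 and 1263 CPM in males. Sexes overlapped in both genotypes. Egr1wtNesCre+ females had 2315, 2238 and 1552 CPM and the males 1531, 2084 and 1519.8 CPM. In Egr1cKO mice, females had 958, 1119 and 1277 CPM and males 2052, 1793 and 1475 CPM. All 3 Egr1cKO females lay below all other females and below the Egr1cKO males, while the Egr1cKO males lay within the range of the other males. Against Egr1fNesCre- females the log2FC was -0.70 ± 0.14 (SE; edgeR quasi-likelihood test, adjusted p = 0.0493), close to the threshold of 0.05. Against Egr1wtNesCre+ females it was -0.87 ± 0.15 (adjusted p = 0.0252 by edgeR).

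Neat1, the paraspeckle scaffold, was at 48.0, 63.6 and 46.7 CPM in Egr1wtNesCre- females and at 68.3, 61.9 and 52.7 CPM in the males. Egr1fNesCre- females had 56.1, 63.7 and 61.3 CPM, and males 49.2, 78.5 and 76.2 CPM. The 2 sexes again overlapped. Egr1wtNesCre+ females had 92.8, 48.1 and 73.3 CPM, the widest spread of any group, and males 74.7, 56.2 and 59.4 CPM. Egr1cKO females had 34.03, 31.01 and 38.25 CPM, and Egr1cKO males 49.0, 64.9 and 66.7 CPM. All 3 Egr1cKO females were below all 21 other mice, which held for 156 of the 19742 genes kept over the 24 mice, 0.79% of them, and for no other member. The log2FC was -0.81 ± 0.10 (adjusted p = 0.00789 by edgeR) against Egr1fNesCre- females and -1.06 ± 0.20 (adjusted p = 0.0313 by edgeR) against Egr1wtNesCre+ females. Without the Egr1wtNesCre+ female with many choroid plexus reads, the second value was -0.82 (adjusted p = 0.00405 by edgeR).

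Lncpint, the p53-induced RNA, was at 6.62, 1.83 and 3.32 CPM in Egr1wtNesCre- females and at 6.92, 4.36 and 2.11 CPM in the males. Egr1fNesCre- females had 2.75, 4.05 and 5.58 CPM, and males 1.68, 5.64 and 2.64 CPM. The mice of each of these groups spread widely. Egr1wtNesCre+ females had 5.66, 4.32 and 2.78 CPM, and males 5.45, 2.93 and 3.39 CPM. Egr1cKO females had 1.68, 1.82 and 1.31 CPM, and Egr1cKO males 1.96, 2.45 and 2.56 CPM. Lncpint was the only member whose 2 Egr1cKO groups had the lowest means of the 8 groups, and the only one with all Egr1cKO males below all Egr1wtNesCre+ males, as 3.82% of all genes were. The log2FC was -1.36 ± 0.31 (adjusted p = 0.0648 by edgeR) and -1.41 ± 0.33 (adjusted p = 0.0623 by edgeR) in the female comparisons, and -0.49 ± 0.42 and -0.75 ± 0.31 in the male ones, with adjusted p above 0.05 in all 4.

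In the 2 female comparisons, 0.156% and 0.467% of all genes were called lower, and 2 of the 8 members in each. Groups did not overlap, with Egr1cKO lower, for 6 of the 8 members in both comparisons, namely Malat1, Neat1, Lncpint, Miat, Meg3 and Snhg11, where 10.2% and 10.9% of all genes tested did so. All 8 log2FC values were below 0 in both, with medians of -0.42 and -0.44, against -0.01 and -0.02 over all genes tested. Unadjusted p was under 0.05 for 7 and 6 members, and for 18.4% and 17.5% of all genes. DESeq2 called 5 of the 8 members in the first comparison, adding Lncpint, Miat and Snhg11, and 6 in the second, adding Meg3 as well, where it called 5.33% and 6.55% of all genes with an adjusted p. The edgeR calls rested on few mice. Against Egr1fNesCre- females, 0 members were called without Egr1fNesCre- replicate 3 or without Egr1cKO replicate 1 or 2, 1 without Egr1fNesCre- replicate 2 or Egr1cKO replicate 3, and 7 without Egr1fNesCre- replicate 1. Against Egr1wtNesCre+ females, 0 were called without any 1 of the Egr1cKO mice, 1 without Egr1wtNesCre+ replicate 2 or 3, and 3 without replicate 1. The share of all genes called with a mouse left out is not given here. These counts therefore show only how the calls depended on single mice.

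The other 5 members, none of which passed the edgeR test in females, had smaller differences than Malat1, Neat1 and Lncpint. Miat, the neuronal domain RNA, was at 289, 301 and 324 CPM in Egr1cKO females, against 369 to 427 CPM in all other females, with log2FC values of -0.39 ± 0.08 (adjusted p = 0.0588 by edgeR) and -0.35 ± 0.08 (adjusted p = 0.0559 by edgeR). Meg3 was at 2328, 3009 and 2902 CPM, against 3149.7 to 4302 CPM in the other females, and its log2FC was -0.30 ± 0.10 and -0.43 ± 0.13. Snhg11 was at 1245, 1576 and 1552 CPM, against 1646 to 2299 CPM, with log2FC values of -0.33 ± 0.10 and -0.44 ± 0.13. These 3 therefore lay below the other females without overlap. Rian, the snoRNA host of the imprinted cluster, was at 573, 683 and 653 CPM, within the 577 to 793 CPM of the other females but for 1 mouse, and its log2FC of -0.08 ± 0.09 and -0.15 ± 0.11 had unadjusted p of 0.417 and 0.184 by edgeR. Mirg, the miRNA host, was at 16.3, 19.2 and 19.7 CPM in Egr1cKO females, and its log2FC moved from -0.44 ± 0.19 to -0.07 ± 0.13 with the control group used. Adjusted p ran from 0.110 to 0.823 for Meg3, Snhg11, Rian and Mirg in these 2 comparisons by edgeR.

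**Figure D2:**
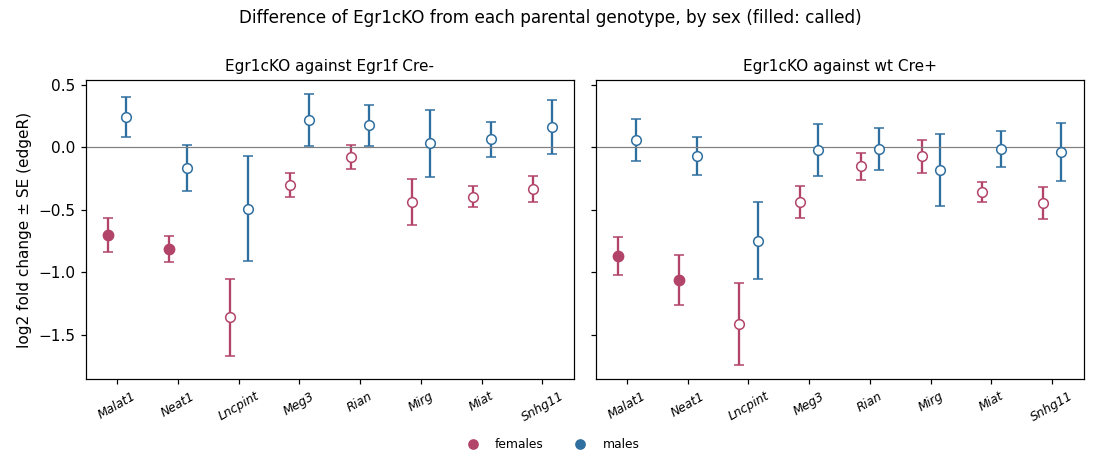
Log2 fold change with its standard error (vertical axis) of each lncRNA in Egr1cKO mice against Egr1fNesCre- (left) and Egr1wtNesCre+ mice (right) of the same sex, filled where called. Females lie below 0 for all 8 lncRNAs in both panels, with Malat1 and Neat1 filled, and males lie on both sides of 0.

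Between the 2 sexes of Egr1cKO mice, DESeq2 called Malat1 and Neat1, and edgeR neither. There edgeR called 0.0635% of 17335 genes and none of the 8 members, and 3 members, Neat1, Malat1 and Miat, had an unadjusted p under 0.05, as did 7.42% of genes. Neat1 was lower in females by a log2FC of -0.81 ± 0.13 (adjusted p = 0.121 by edgeR, 9e-05 by DESeq2) and Malat1 by -0.67 ± 0.14 (adjusted p = 0.373 by edgeR, 0.00184 by DESeq2). DESeq2 called 0.257% of genes there. Without the male Egr1cKO replicate 3, edgeR called both, with log2FC values of -0.73 for Neat1 (adjusted p = 0.0215 by edgeR) and -0.79 for Malat1 (adjusted p = 0.00159 by edgeR), and without the male replicate 1 it called Neat1 (adjusted p = 0.0170 by edgeR). For Malat1, Neat1 and Lncpint the Egr1cKO females lay below the Egr1cKO males without overlap, as did 7.12% of all genes. Whether this sex difference departed from that of the other 3 genotypes was tested as an interaction over the 8 group means. It was -0.81 ± 0.22 for Malat1 (adjusted p = 0.601 by edgeR) and -0.74 ± 0.23 for Neat1 (adjusted p = 0.708 by edgeR), negative for all 8 members, and called for none of them. There edgeR called 0.00507% and DESeq2 0.0312% of genes, none of them a member, so that a departure of the Egr1cKO sex difference from the others was not shown.

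With both sexes pooled, none of the 8 members was called by edgeR between the 6 Egr1cKO mice and the 18 others, and all 8 overlapped between them. The test called 1 gene of 18433 (0.00543%), Egr1 itself. Lncpint had the largest value, a log2FC of -1.01 ± 0.27 (adjusted p = 0.179 by edgeR), and was the 1 member that DESeq2 called (adjusted p = 0.0294), where it called 0.195% of genes. Its mean was 1.96 ± 0.47 CPM (SD, n = 6) in Egr1cKO mice and 4.002 ± 1.65 CPM (SD, n = 18) in the others, and the groups overlapped. Neat1 was at 47.3 ± 15.6 against 62.8 ± 12.6 CPM, with a log2FC of -0.40 ± 0.15, and Malat1 at 1446 ± 415 against 1846 ± 365 CPM, with -0.35 ± 0.14. Unadjusted p fell under 0.05 for these 3 and Miat, as for 15.1% of all genes. The value of Rian, -0.02 ± 0.08, was smaller than its error. Without the male Egr1cKO replicate 3, edgeR called Lncpint, Meg3, Miat and Snhg11, 4 of the 8, with log2FC values of -1.11, -0.31, -0.26 and -0.33, so that this 1 library decided whether the test was passed. The share of all genes called without this library is not given here, so the 4 calls are not read as particular to the members.

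By edgeR, no member was called in any of the other tests. Those over all 8 groups and the floxP, Nestin-Cre, sex and floxP by Nestin-Cre terms were called on adjusted p alone, without a fold minimum. Over all 8 groups at once, edgeR called 0.0658% of genes and DESeq2 0.61%, among them, by DESeq2 alone, Neat1 (adjusted p = 0.0071) and Malat1 (adjusted p = 0.0306). The floxP effect, with 0.00533% of genes called, was at most 0.62 in size on the log2 scale, for Lncpint. The Nestin-Cre effect, with 0.048% called, and the sex effect, with 0.0746%, ranged over the members from -0.47 to 0.06 and from -0.25 to 0.12. For the floxP by Nestin-Cre interaction, which stands for loss of Egr1 and where 0.00533% were called, Neat1 was at -0.71 ± 0.23 (adjusted p = 0.152 by edgeR) and Lncpint at -0.87 ± 0.45. Against Egr1wtNesCre- mice of the same sex, neither floxP alone, with 0.0113% of genes called in females, nor Nestin-Cre alone gave a called member, and 0.0% of genes were called in the other 3 of these 4 comparisons. Their smallest adjusted p for a member was 0.597 by edgeR. No member was called between females and males of the 3 other genotypes, where 0.0399%, 0.0341% and 0.0348% of genes were called.

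As a share of all counts, the 8 members together took 0.517% to 1.07% of a library, with a median of 0.799%. In Egr1cKO females the 3 shares were 0.517%, 0.661% and 0.664%. The other 7 groups had 0.624% to 1.07%, and all but 1 of those 21 mice were above 0.664%. Malat1 made up 0.0909% to 0.125% of the counts in Egr1cKO females and 0.125% to 0.248% elsewhere. Without Malat1, the remaining 7 still summed to 0.426% to 0.551% in Egr1cKO females, against 0.491% to 0.911% elsewhere. Other nuclear lncRNAs, a list of 20 without Xist that includes Kcnq1ot1 and Tug1, summed to 0.295% to 0.309% in Egr1cKO females and 0.281% to 0.310% elsewhere. That sum is mostly 2900097C17Rik and 1700020I14Rik, with means of 1586 and 589 CPM in Egr1cKO females, and gene by gene 14 and 15 of the 21 tested, Xist included, had log2FC values below 0 in the 2 female comparisons.

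**Figure D3:**
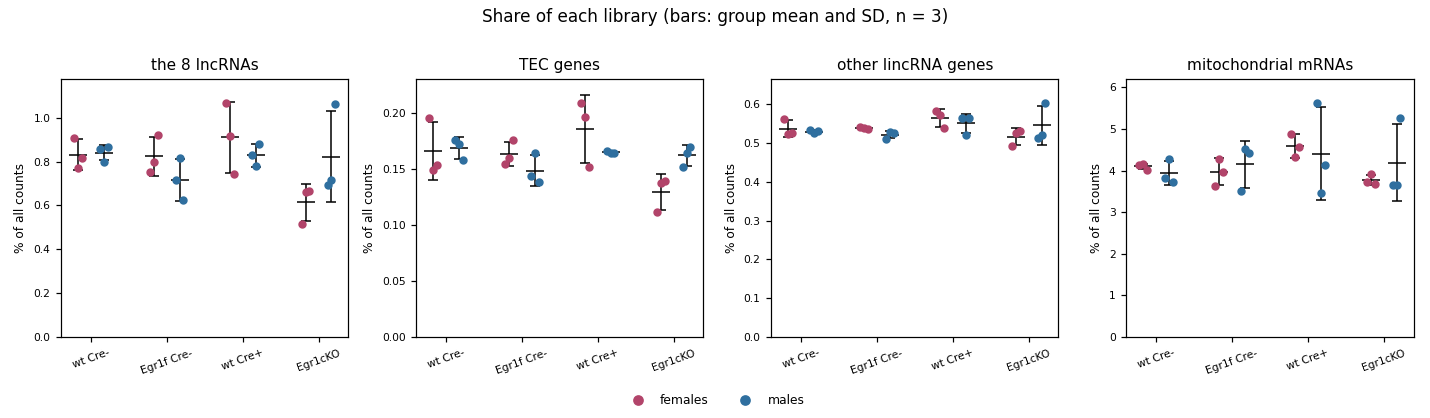
Percent of all counts (vertical axes, from 0) taken in each mouse by the 8 lncRNAs, by TEC genes (annotated transcripts that await an experimental check), by other lincRNA genes without Xist and by the mitochondrially encoded mRNAs, with group means and SDs of 3 mice. Egr1cKO females are low for the 8 lncRNAs, at 0.517% to 0.664%, and for TEC genes, at 0.111% to 0.140%, and overlap the other groups in the last 2 panels.

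Other noncoding classes gave a mixed picture beside the members. TEC genes, which often overlap introns and so take in unspliced RNA, summed to 0.111%, 0.138% and 0.140% of counts in Egr1cKO females and to 0.139% to 0.210% in the other 21 mice. Antisense genes were at 0.156% to 0.176% there and 0.173% to 0.222% elsewhere. Other lincRNA genes were at 0.492% to 0.532%, against 0.511% to 0.604% in the other mice. Over the 24 mice, r of the log2 level with the TEC share was 0.86 for Malat1, 0.76 for Lncpint, 0.71 for Miat, 0.70 for Meg3 and 0.68 for Snhg11. It was 0.53 for Rian and Neat1, and 0.29 for Mirg. For deviations from the group means it was 0.74 for Malat1, 0.70 for Lncpint, 0.59 for Rian, 0.53 for Snhg11 and 0.52 for Meg3. Miat was there at 0.48, Mirg at 0.31 and Neat1 at 0.12. With the share of other lincRNA genes, r ran from 0.31 for Malat1 to 0.89 for Snhg11, with 0.82 for Meg3 and 0.79 for Rian. All of these come from the same libraries and share their depth, and the part of unspliced RNA in the members' differences was not tested.

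The members did not move as 1 block. Meg3, Snhg11 and Rian moved together within groups, Mirg and Miat followed more loosely, Malat1 went with Lncpint, and Neat1 stood alone. These correlations of log2 CPM are over 24 mice, points that share libraries and groups, and are given as a description. This grouping was made after their values were seen. Among the 28 pairs, Pearson's r ran from 0.03 to 0.95 with a median of 0.50, and after subtraction of the group means from -0.07 to 0.96 with a median of 0.33.

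Meg3 and Snhg11 lie on different chromosomes and had the highest r, 0.95 (Spearman's rho 0.93), and 0.96 for deviations from group means. Rian followed Meg3 at 0.80, and at 0.90 within groups, although it overlapped the controls in Egr1cKO females. Mirg, from the same imprinted cluster, had only 0.50 with Meg3 and 0.53 with Rian, and 0.65 with Snhg11. The 10 pairs among Meg3, Rian, Mirg, Miat and Snhg11 had a median r of 0.68, and 0.67 within groups. Without the pair of mice with the lowest hippocampal markers, r of Meg3 with Snhg11 was 0.92, and the median within groups over the 10 pairs was 0.55. Without the 2 mice farthest from the median of Meg3, r of Meg3 was 0.92 with Snhg11 and 0.78 with Rian.

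Malat1 and Lncpint had r of 0.68 (rho 0.72), 0.52 within groups, and 0.62 without the 2 mice farthest in Malat1. Neat1 and Malat1, which are neighbours on chromosome 19, had r of 0.44 and, within groups, -0.07. With the 6 Egr1cKO mice left out, that r over the other 18 was -0.08, and without the 2 mice farthest in Malat1, which were Egr1cKO females, it was 0.06. Neat1 reached its highest r, 0.65, with Miat, and within groups its 7 pairs reached at most 0.33. Lncpint was between these, with r of 0.37 to 0.68 over its 7 pairs and 0.20 to 0.52 within groups. The shift in Egr1cKO females was thus shared by Malat1 and Neat1, while within groups these 2 neighbours did not vary together.

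**Figure D4:**
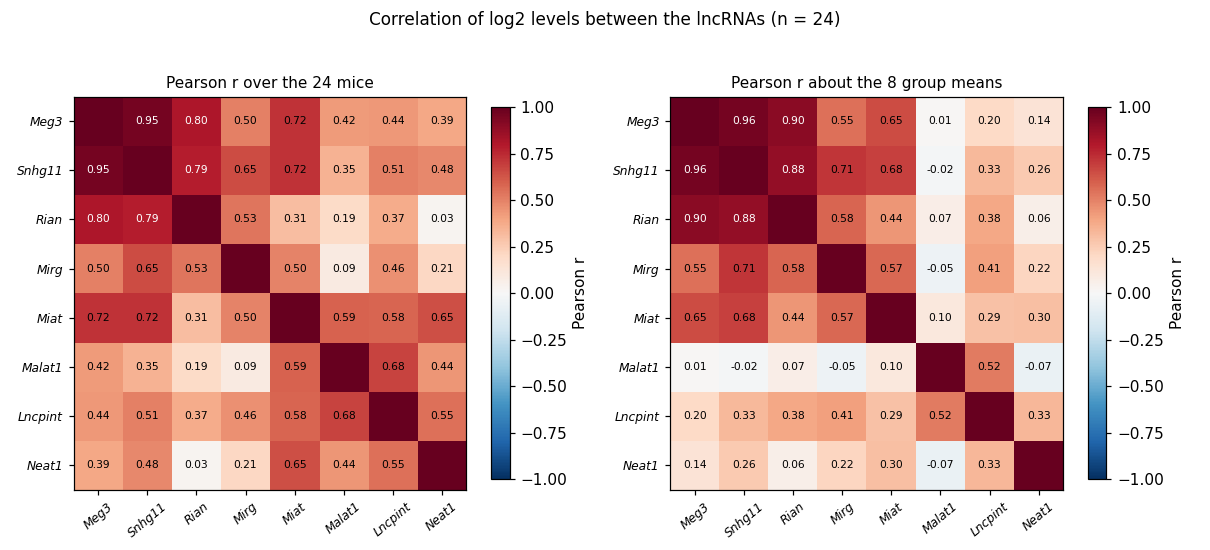
Pearson r between the log2 levels of the 8 lncRNAs over 24 mice (left) and for deviations from the 8 group means (right), on a scale from -1 to 1. Meg3 and Snhg11 reach 0.95 and 0.96, and Neat1 with Malat1 is at 0.44 on the left and -0.07 on the right.

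**Figure D5:**
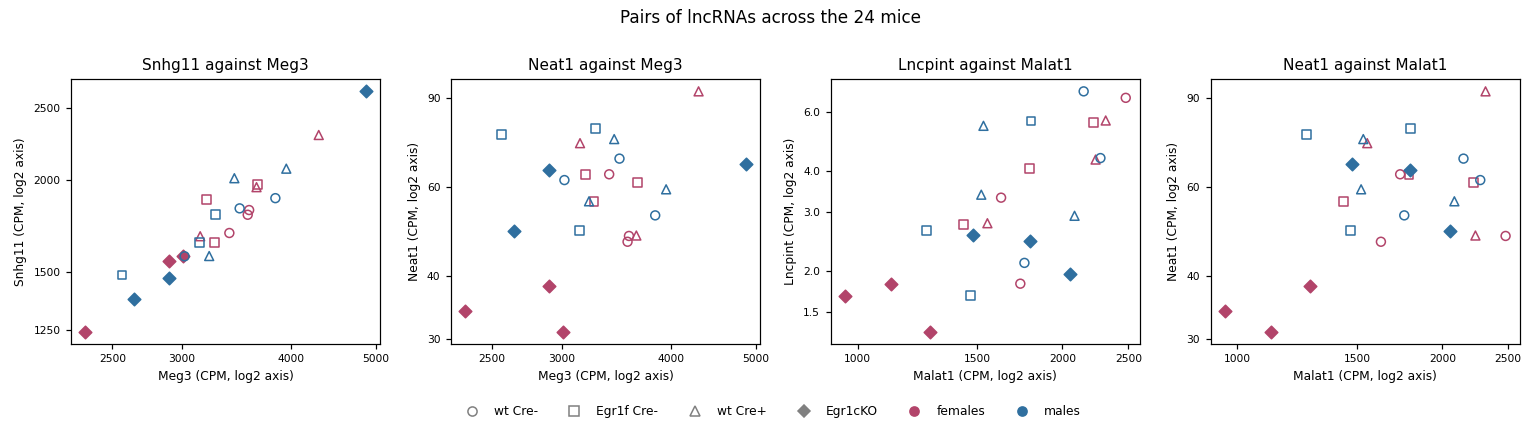
Levels in CPM (both axes log2) of 4 pairs of lncRNAs in the 24 mice, with the shape for genotype, filled for Egr1cKO, and the colour for sex. Snhg11 rises along Meg3 (r of 0.95), Lncpint follows Malat1 more loosely (r of 0.68), and in both panels with Neat1 the 3 Egr1cKO females lie below all other points.

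Among the 11681 genes with a mean of at least 5 CPM, the gene most alike to Meg3 was Snhg11, followed by A230057D06Rik (r of 0.88) and Wsb1 (0.86). Snhg11 had Meg3, Ankrd24 (0.89) and A230057D06Rik (0.88), and Rian had Grik1 (0.87), N4bp2l1 (0.85) and A230057D06Rik (0.82). The lincRNA A230057D06Rik was thus among the 3 nearest of all 3 members. Neat1 was nearest to Gabrd (0.89), a subunit of extrasynaptic GABA receptors, Kmt5c (0.86) and 1700047M11Rik (0.86). Malat1 was nearest to D10Wsu102e (0.86), Srcap (0.79) and Ulk4 (0.78), and Lncpint to Plekha5 (0.79), Mrps10 (0.74) and Gm26917 (0.74). Miat was nearest to Mir124a-1hg (0.89), Akap8 (0.86) and Mcoln1 (0.85), and Mirg to Fbf1 (0.88), Mrps15 (0.84) and Hdac3 (0.83). No member other than Meg3 and Snhg11 was among another's nearest 3.

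Frmd8, Mkln1, Ralgapb and Lbp, coding genes next to Neat1, Lncpint or Snhg11, were not called in Egr1cKO females. Frmd8, beside Neat1, had log2FC values of 0.13 ± 0.15 and -0.12 ± 0.19 in the 2 female comparisons, against -0.81 and -1.06 for Neat1. Mkln1, beside Lncpint, was at 0.23 ± 0.09 and 0.19 ± 0.08, and Klf14 on its other side was too low to be tested. Ralgapb, beside Snhg11, was at 0.17 ± 0.09 and 0.24 ± 0.08, and Lbp, on its other side, at -0.46 ± 0.31 and -1.30 ± 0.49. In the imprinted region Dlk1 was 0.96 ± 0.20 higher on the log2 scale than in Egr1wtNesCre+ females (adjusted p = 0.0453 by edgeR) and 0.95 ± 0.32 than in Egr1fNesCre- females (adjusted p = 0.147 by edgeR), opposite to the values below 0 of Meg3. Rtl1, on the other side of Meg3, was below 0 as Meg3 was, at -0.61 ± 0.21 and -0.60 ± 0.20. Neither Rtl1 nor Dio3 was called.

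Among the other nuclear or chromatin-linked lncRNAs, 21 of 22 were matched and tested, and 1 was lower against Egr1fNesCre- females and 3 against Egr1wtNesCre+ females, with none higher. Of all genes, 0.156% and 0.467% were called lower there. Mir124a-1hg, the host of a neuronal miRNA, fell in both, with log2FC values of -0.55 ± 0.10 (adjusted p = 0.0352 by edgeR) and -0.51 ± 0.09 (adjusted p = 0.0224 by edgeR). Gm26917 (-1.31 ± 0.19) and Sox2ot (-0.49 ± 0.10) fell in the second comparison and were at -1.33 ± 0.32 and -0.36 ± 0.11 in the first. The list's medians were -0.09 and -0.16, against -0.01 and -0.02 over all genes. Of the 21, 7 and 11 had an unadjusted p under 0.05 by edgeR, as did 18.4% and 17.5% of all genes. For snoRNA host genes, 13 of 18 were tested and none was called, with medians of -0.18 and -0.22 and with 12 and 11 of them below 0.

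Proteins of the bodies around Neat1 and Malat1 were seen only through their mRNAs. Of 12 mRNAs of paraspeckle proteins, such as Nono, Sfpq and Pspc1, none was called in either comparison. Their medians were 0.01 and 0.06, and 4 and 5 of them were below 0. Of 13 mRNAs of nuclear speckle and RNA export proteins, 1, that of the splicing factor Srsf5, was lower than in Egr1wtNesCre+ females, by a log2FC of -0.34 ± 0.07 (adjusted p = 0.0453 by edgeR). In that comparison 0.467% of all genes were called lower. The medians of these 13 were -0.20 and -0.16, with 12 and 10 below 0. Unadjusted p was under 0.05 by edgeR for 6 and 4 of them, and for 18.4% and 17.5% of all genes. Of 12 p53 targets, listed because of Lncpint, 11 and 12 were tested and none was called, with medians of -0.04 and 0.04.

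Markers of other cell types shifted in the same mice, in the 2 female comparisons where 0.288% and 1.81% of all genes were called. Of 6 oligodendrocyte markers, 1, Mobp, was lower than in Egr1fNesCre- females, with a log2FC of -0.61 ± 0.10, and all 6 were below 0 in both comparisons. Their sum was 3458 to 4508 CPM in Egr1cKO females, 4932 to 5782 in Egr1fNesCre- and 4022 to 6136 in Egr1wtNesCre+ females. In Egr1cKO males all 6 were also below 0 in both comparisons, with medians of -0.16 and -0.17 and none called. The lowest oligodendrocyte sum of the 24 mice, 3246 CPM, was in the male Egr1cKO replicate 3, with Neat1 at 66.7 CPM. Of 6 astrocyte markers, 1, Aqp4, was higher against Egr1fNesCre- females, with a log2FC of 0.86 ± 0.14, and was at 0.24 ± 0.07 against Egr1wtNesCre+ females. None of the 6 was below 0 in the first comparison, and 2 were in the second. Aqp4 was also called for the Nestin-Cre effect over both sexes and floxP states, at 0.62 ± 0.08 (adjusted p = 0.000177 by edgeR). The astrocyte sum was 5418 to 5473 CPM in Egr1cKO females, 3576 to 5221 in Egr1fNesCre- and 4217 to 4665 in Egr1wtNesCre+ females. None of these 12 markers was at 0 in any mouse. Over the 24 mice, the oligodendrocyte sum had r of 0.64 with Neat1 and 0.63 within groups, and the astrocyte sum had r below 0 with all 8 members, from -0.19 for Rian to -0.74 for Mirg, with -0.62 for Neat1 and -0.63 for Lncpint. The hippocampal neuron sum had r of -0.76 with Snhg11, -0.71 with Rian and -0.67 with Meg3, but -0.09 with Malat1. The 2 mice with the lowest hippocampal sums were the female Egr1wtNesCre+ replicate 1 and the male Egr1cKO replicate 3. They also had the 2 highest levels of Meg3 (4302 and 4873 CPM), Snhg11 (2299 and 2634 CPM) and Rian (793 and 818 CPM). Without this pair, r with the hippocampal sum is not given here. Choroid plexus Ttr was higher than in Egr1fNesCre- females, by a log2FC of 1.04 ± 0.15, with sums of the 6 choroid plexus markers of 49.7 to 55.7 against 33.1 to 36.2 CPM, Folr1 and Kcnj13 being at 0 in some of these mice. Against Egr1wtNesCre+ females, whose replicate 1 held 2028 CPM of these markers, Ttr was at -4.91 ± 1.40 and was not called, and all 4 markers tested were below 0. Among the 6 markers each of neurons, hippocampal neurons, microglia and endothelium, none was called in either comparison. The part of cell composition or dissection in the members' differences was not tested.

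Promoter windows, 250 bases before to 50 after each start in RefSeq on GRCm38.p6, were searched on both strands because EGR1 is a transcription factor, and 7 of the 8 members had at least 1 window, Neat1 having none in the table. None of their 8 windows held the EGR1 site GCGNGGGCG, which 5.55% of 32851 windows held. The CRE TGACGTCA, a site of cAMP-responsive factors, was in 1 of the 2 Meg3 windows and in 1.79% of all windows. Its core TGACG, which overlaps it, was in the windows of Meg3 and Malat1 and in 20.8%, the CCAAT box in those of Meg3 and Mirg and in 37.4%, the E-box CACGTG in that of Lncpint and in 7.15%, and the GC box GGGCGG in that of Miat and in 35.7%. The next lines show the windows of Malat1, called in females, and of Meg3 and Snhg11, the pair that moved together, at chr19:5802623-5802922 (minus), chr12:109540746-109541045 (plus) and chr2:158375463-158375762 (plus), with TGACG and CCAAT on either strand in capitals.
Malat1: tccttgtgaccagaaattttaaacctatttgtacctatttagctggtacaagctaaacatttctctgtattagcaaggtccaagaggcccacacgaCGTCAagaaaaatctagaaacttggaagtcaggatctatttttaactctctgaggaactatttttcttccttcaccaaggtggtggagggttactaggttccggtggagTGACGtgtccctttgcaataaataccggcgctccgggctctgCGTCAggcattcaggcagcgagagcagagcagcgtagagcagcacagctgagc
Meg3: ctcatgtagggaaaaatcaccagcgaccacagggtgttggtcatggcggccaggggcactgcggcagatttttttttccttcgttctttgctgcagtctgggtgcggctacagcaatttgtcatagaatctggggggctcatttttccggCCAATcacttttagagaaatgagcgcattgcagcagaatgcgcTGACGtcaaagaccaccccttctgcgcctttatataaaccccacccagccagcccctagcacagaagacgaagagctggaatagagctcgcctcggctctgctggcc
Snhg11: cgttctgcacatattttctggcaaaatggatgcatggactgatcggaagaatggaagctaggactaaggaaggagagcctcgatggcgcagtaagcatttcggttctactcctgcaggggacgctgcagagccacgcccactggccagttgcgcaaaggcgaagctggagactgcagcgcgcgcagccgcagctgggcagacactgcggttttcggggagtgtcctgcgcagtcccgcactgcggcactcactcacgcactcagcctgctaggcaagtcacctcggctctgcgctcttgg
Counted without overlap, the Malat1 window held TGACG 3 times, the Meg3 window 1 time together with 1 CCAAT, and the Snhg11 window none of the motifs searched. Whether promoter sites bear on how these members moved was not tested.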

How the data were processed

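PolyA RNA of the hippocampus of 24 mice was sequenced in non-stranded libraries. The authors deposited raw counts of reads per Ensembl gene, made according to the submitters' processing notes with Trim Galore 3.8.2, FastQC and STAR 2.7.9 on GRCm38. The annotation used for counting is not given in the sources used here. Symbols, biotypes and positions came from GENCODE M21, and 112 identifiers had no symbol.

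Groups were taken from the labels, and replicates are separate mice. Counts were tested in R 4.3.3 with edgeR 4.0.16 (filterByExpr with a minimum count of 10, TMM, quasi-likelihood F-test, Benjamini-Hochberg adjustment over all genes kept), each pairwise comparison being fitted on its own mice. Genes were called at FC ≥ 1.2 and adjusted p ≤ 0.05. Standard errors are the log2FC over the square root of F. DESeq2 1.42.0, its size factors, no filter, no FC minimum, scaling on protein-coding genes, 1 fit of 24 mice, a replicate block and each mouse left out were the alternatives. The fits were tested on simulated counts. Correlations used log2(CPM + 0.5), and similar genes log2(CPM + 1).

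Members, lists, markers and tests were chosen with earlier results of these data known. Genes named were the members, up to 4 examples and the called genes of each list, the 3 most similar genes with a mean of at least 5 CPM, neighbours (1 of them not reported here) and Egr1. Libraries held 18025168 to 34955004 counts, of which Lncpint had 31 to 168.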

Additional observations from a re-analysis of the deposited data

Results flagged for a closer look

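All 3 values set apart here came from the male Egr1cKO replicate 3, the mouse with the second lowest hippocampal neuron markers. Each was farther from the nearest of the 6 Egr1cKO mice, relative to their whole range, than Dixon's 95% critical value for 6 samples allows. Meg3 was at 4873 CPM in this mouse, against 3009 CPM in the next highest, with a ratio of gap to range of 0.732. Snhg11 was at 2634 CPM against 1576 CPM, with a ratio of 0.762. The 8 members together took 1.06% of its counts, against 0.714% in the next, with a ratio of 0.638. Chance sets apart about 1 in 20 groups, and 36 groups were examined. The 3 values are not independent of each other, because Meg3 and Snhg11 had r of 0.95 and both are part of the summed share.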

How the results depend on the processing

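Counts of called members depended on the tool and on single mice more than the values did. DESeq2 called 2 members over all 8 groups, 1 for Egr1cKO against all others, 2 between the sexes of Egr1cKO, 5 between Egr1cKO and Egr1fNesCre- females and 6 between Egr1cKO and Egr1wtNesCre+ females, against 0, 0, 0, 2 and 2 by edgeR. Without a filter on low counts these were 3, 0, 2, 7 and 6, and 2 members were called for the Egr1cKO sex difference against other genotypes, 2 for floxP, 1 each for floxP by Nestin-Cre, sex, Nestin-Cre alone in females and floxP alone in males. A shared fit of 24 mice called 0 and 1 in the 2 female comparisons, and DESeq2's size factors 1 in the first. With each mouse left out, the counts ran from 0 to 4 for Egr1cKO against all others, 0 to 2 between its sexes, 0 to 1 for floxP alone in females (1 without Egr1fNesCre- replicate 1), 0 to 7 and 0 to 3 in the 2 female comparisons. For the changed edgeR fits, the replicate block below included, the share of all genes called is not given. Their counts therefore show only how calls depended on the fit, and are not a result about the members.

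Whether replicate numbers mark a shared litter or day is not given in the labels. Same-numbered mice of different groups deviated together by more than 0.1 in 16 of 84 pairs (mean r -0.003), and differently numbered mice in 40 of 168 pairs (mean r 0.002). Of the 24 mice, 7 correlated best with their own number. With a replicate block, 0 members were called between Egr1cKO and Egr1wtNesCre+ females, with log2FC values of -0.85 for Malat1 and -1.01 for Neat1, and 2 against Egr1fNesCre- females. The sign of Mirg between the sexes of Egr1cKO turned to 0.025.

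Signs also turned when single mice were left out. Rian ran from -0.11 to 0.031 for Egr1cKO against all others, and Mirg from -0.13 to 0.028 for Egr1cKO against Egr1wtNesCre+ females. Between the sexes of Egr1cKO, Rian ran from -0.12 to 0.23, Mirg from -0.23 to 0.37 and Snhg11 from -0.49 to 0.029. In males, Lncpint ran from -0.82 to 0.12 against Egr1fNesCre-, and Malat1 from -0.062 to 0.23 and Neat1 from -0.15 to 0.064 against Egr1wtNesCre+. The median r within Malat1, Neat1 and Lncpint was 0.55, and 0.33 within groups. The causes were not tested.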

Other observations

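Among the members, the spread between mice of the same group differed in size. The SD of log2 CPM about the group means was 0.53 for Lncpint, 0.27 for Mirg, 0.23 for Neat1, 0.22 for Malat1, 0.20 for Snhg11, 0.19 for Meg3, 0.15 for Rian and 0.11 for Miat. From the lowest to the highest of the 24 mice, Lncpint spanned 5.27-fold, Neat1 2.99-fold, Malat1 2.59-fold and Miat 1.55-fold.

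Of the members, Rian was the only one whose lowest group mean was not that of Egr1cKO females. Its lowest was in Egr1fNesCre- males. The summed level of the other 7 members had r of 0.84 with Snhg11, 0.82 with Meg3, 0.78 with Miat and 0.69 with Rian over the 24 mice. For Malat1 and Neat1 it was 0.41 and 0.48, and within groups 0.01 and 0.14. The mitochondrially encoded mRNAs, as a share of counts, had r within groups of 0.71 with Mirg, 0.60 with Snhg11 and 0.59 with Neat1. With Lncpint, Rian, Miat and Meg3 it was 0.45, 0.42, 0.40 and 0.39, and with Malat1 -0.20.

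GENCODE M21 lists 20 transcripts for Rian, 16 for Lncpint and 11 for Meg3, against 4 each for Malat1 and Neat1, and the counts sum them.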
